A study of Homo sapiens with 4 samples.

Results

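Replication-independent histone variants are the histones that cells make outside S phase, and 9 of their genes were followed here: H3-3A and H3-3B, H2AZ1 and H2AZ2, H2AX, H2AJ, MACROH2A1 and MACROH2A2, and the linker histone gene H1-10. They were chosen by name, and all 9 were found among the 25679 genes of the deposited tables. H3-3A was listed at 0 in every library, so 8 of the 9 were among the 9939 genes tested. The cells were DU-145, a human prostate cancer cell line that grows without androgen, and every library was RNA recovered on streptavidin beads. Control cells (2 libraries) were transfected with an untagged miR-26a duplex, ds-miR-26aCT. Biotin cells (2 libraries) were transfected with a mix of miR-26a duplexes tagged with biotin at the 3′ end, ds-miR-26aBIO, which carried a thiouridine at nucleotide 7 or 17. All cells received 60 nM duplex 24 h after seeding and ultraviolet light at 365 nm with 2 J/cm2 the day after transfection, and their RNA was left on the beads for 4 h. Both groups thus contained added miR-26a, and since no group had biotin without thiouridine, or the reverse, the effects of these 2 modifications cannot be told apart. The design describes 2 biological replicates a group of this single cell line. The comparison asks which RNAs were recovered more, or less, with the tagged microRNA than without a tag. In such bulk RNA, a change in the recovery of an mRNA, in the number of cells that make it and in its amount per cell cannot be told apart, and libraries of RNA before the pull-out were not analysed here.

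Most histones of a dividing cell come from clustered, intronless genes that are transcribed during DNA replication, and their mRNAs end in a stem-loop in place of a poly(A) tail. The variants come from genes outside those clusters, are made throughout the cell cycle and mostly have polyadenylated mRNAs. They replace the canonical histones in chosen nucleosomes: H3.3 at active genes and at telomeres, H2A.Z around transcription start sites, phosphorylated H2A.X at DNA double-strand breaks, and macroH2A, which carries a large non-histone domain, in repressed chromatin. MiR-26a represses mRNAs through sites in their 3′ UTRs that pair with its seed.

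The miR-26a seed and the best matches to it among the variants are shown first because the libraries were made to recover RNA bound by this microRNA. The mature sequence is from RefSeq (GRCh38.p14, chr3:37969413-37969434, plus strand), with nucleotides 2 to 8 in capitals.
miR-26a-5p: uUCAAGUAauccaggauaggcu
None of the 9 3′ UTRs in GENCODE 29 held a match to nucleotides 2 to 8, TACTTGA in the mRNA, which 11.9% of the 3′ UTRs of tested genes held. Shorter matches, to nucleotides 2 to 7 (ACTTGA), were found in the 3′ UTRs of 2 variants. H2AZ2 held 1, which starts 1228 nt after the stop codon and is followed by A, a class held by 17.4% of tested 3′ UTRs. H3-3B held 2, starting 340 and 1734 nt after the stop codon and not followed by A. A match of any of these kinds was held by 34.3% of tested 3′ UTRs. The matches are in capitals below.
H2AZ2 at 1228: gtgctattgctgACTTGAagatagaggg
H3-3B at 340: aaactggttatgACTTGAtccaagtgtt
H3-3B at 1734: tggaacaagcacACTTGAttcctcactg
The 3′ UTRs searched were long in these genes, 3353 nt in H2AZ2 and 2161 nt in H3-3B. The other transcripts of the members held no further match except a single ACTTGA in the H2AJ transcript NR_027716, which was listed at 0. The H2AJ transcript above 0 was deposited at 3667 nt over the same positions, but its 3′ UTR was searched in a GENCODE transcript of 644 nt. Whether the counted H2AJ transcript holds that match was therefore not determined.

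Of the 8 variants tested, 2 rose, 2 fell and 4 were not called in the biotin libraries. H3-3B and MACROH2A1 rose, and H2AX and MACROH2A2 fell. Calls used limma on log2(FPKM + 1) with Benjamini-Hochberg adjustment over all tested genes and a threshold of 0.05. FPKM is the number of fragments per kilobase of transcript, scaled to the total of mapped fragments. Among all tested genes 22.5% were called, 13.2% higher and 9.34% lower. Whether 4 calls among 8 genes differ from that share was not tested. The median log2 change of the 8 variants was -0.28, beside -0.06 over all tested genes. In 7 of the 8 the control and biotin values did not overlap, 3 of them higher and 4 lower with biotin. Over all tested genes 67.1% did not overlap, 29.4% higher and 37.7% lower with biotin. With 2 libraries against 2, an exact two-sided permutation test of a single gene cannot go below p = 0.33, so each adjusted p-value rests on the spread that limma shares across genes.

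**Figure D1:**
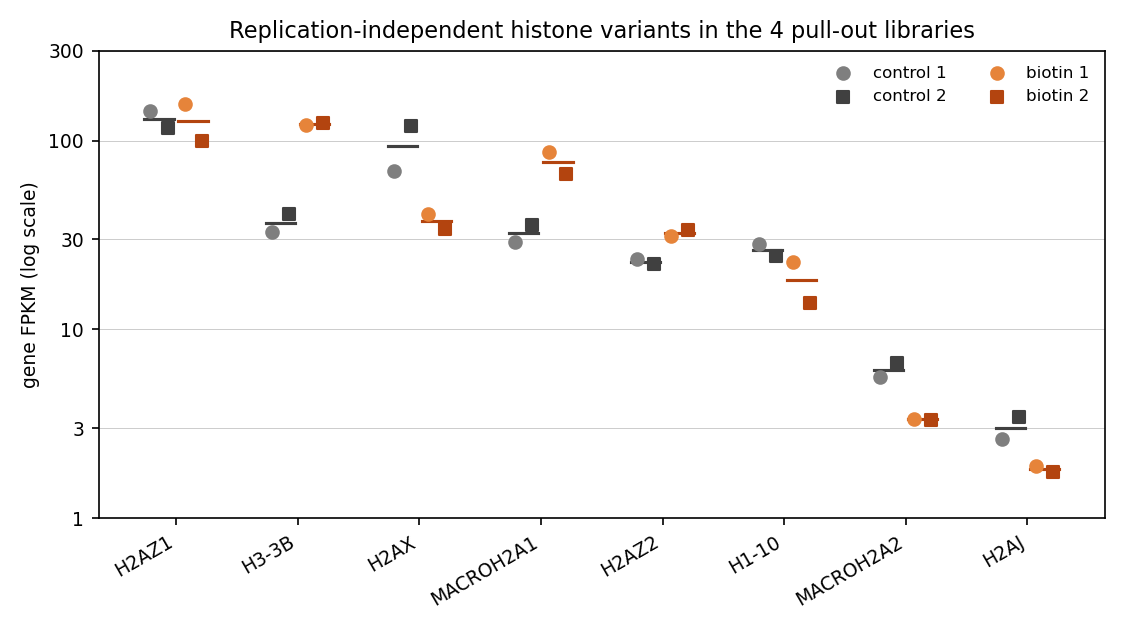
Gene FPKM (log axis) of the 8 tested variants in each of the 4 libraries; points are libraries and short lines are group means. The biotin points of H3-3B and MACROH2A1 lie above both controls, those of H2AX and MACROH2A2 lie below both, and the groups overlap in H2AZ1.

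The deposited coverage, set against FPKM, gave an estimated 16030000 and 17840000 mapped reads for the control libraries and 17570000 and 23640000 for the biotin libraries. The tested variants rested on an estimated 122 to 7919 reads per library, for which counting alone gives an error of 9.05% at the lowest and 1.12% at the highest. For a transcript of 1 kb, 3 reads amounted to 0.127 to 0.187 FPKM. Libraries of the same group correlated at r = 0.972 and 0.97 across genes and libraries of different groups at 0.876 to 0.883. Of 10 genes listed as markers of DU-145, 9 passed the filter, with a summed level of 343.9 and 477.5 FPKM in control libraries and 337.0 and 389.0 FPKM with biotin. The gene with the highest level in this list was VIM, which is mesenchymal and not epithelial, at 173.4 and 271.7 FPKM in control libraries and 123.5 and 165.8 FPKM with biotin. The keratins KRT8, KRT18 and KRT19 were at 20.7 to 74.3 FPKM. The epithelial genes EPCAM, CDH1 and ITGB4 were far lower, at 1.7 to 2.97 FPKM. Of the 9 tested, EGFR and CD44 rose and 0 fell in limma, and the remaining marker, KRT5, was at 0. The EGFR call was lost without either control replicate (adjusted p up to 0.0719). The luminal prostate markers KLK3, KLK2 and FOLH1 were at 0 in every library, as were the blood cell markers PTPRC, CD3E and HBB. CD68 stood at 5.42 to 10.1 FPKM, and no library exceeded 0.107 FPKM for the summed endothelial markers or 0.35 FPKM for the summed fibroblast markers.

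H3.3 is encoded by H3-3A and H3-3B, whose mRNAs differ but whose proteins are the same. H3-3B (NM_005324, hg38 chr17:75776434-75779779, a transcript of 2705 nt in 4 exons) stood at 33.0 and 40.7 FPKM in the control libraries and at 121.7 and 123.9 FPKM in the biotin libraries. Both biotin values were about the same and far above both controls. The mean went from 36.8 ± 5.45 to 122.8 ± 1.53 FPKM (SD, n = 2 each), a ratio of 3.34. The log2 change was 1.72 ± 0.20 (SE; 95% interval 1.23 to 2.20), with a limma adjusted p of 0.00365. H3-3B passed the threshold in each of the 17 alternative fits, with log2 changes of 1.57 to 1.87. Of all tested genes, 97.4% had a lower log2 change.

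H3-3A (NM_002107, hg38 chr1:226062707-226072002, 1062 nt) was listed at 0 FPKM in all 4 libraries with an ordinary status flag. A second transcript at this position carried the accession of the H3.3 pseudogene H3P6 (NR_002315) and was listed at 0.382, 0.964, 0.619 and 0.414 FPKM with a low-data status. In GENCODE 29, 34.8% of the 50-base windows of the H3-3A transcript occur in transcripts of 12 other genes, most of them processed pseudogenes. How the authors' pipeline placed reads that fit several genes is not given in the sources used here. Whether H3-3A was recovered was therefore not determined.

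The coding sequences are shown because they bear on which reads can be told apart. A 50-base read is assigned by its letters, and H3-3B has a close copy in H3-5, an intronless gene for the primate variant H3.5. Bases 169 to 228 of each coding sequence in GENCODE 29 are given, with capitals where a base differs from H3-3B.
H3-3B: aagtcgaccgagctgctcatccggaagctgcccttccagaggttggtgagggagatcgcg
H3-5: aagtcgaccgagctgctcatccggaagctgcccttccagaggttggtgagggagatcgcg
H3-3A: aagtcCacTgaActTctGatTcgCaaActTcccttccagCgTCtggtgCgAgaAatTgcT
In this stretch H3-5 differed from H3-3B at 0 of 60 bases and H3-3A at 17 of 60. Over the whole coding sequence H3-3B was identical to H3-3A at 323 of 411 bases (78.6%) and to H3-5 at 397 of 408 bases (97.3%). Of the 50-base windows of H3-3B, 8.28% also occur in H3-5 and none in another gene. The level of H3-5 was 5.01 and 6.64 FPKM without the tag and 14.5 and 13.7 FPKM with it, a log2 change of 1.16 ± 0.18 (limma adjusted p = 0.0097). Since 21.8% of its windows also occur in H3-3B, its reads cannot all be told from those of H3-3B, and the H3-5 call was lost without control replicate 1 (adjusted p = 0.0565). With both genes summed, the log2 change of the H3-3B value was 1.67.

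H2A.Z is encoded by H2AZ1 and H2AZ2, whose proteins differ at a few residues. H2AZ1 (NM_002106, hg38 chr4:99948087-99950355, 947 nt) stood at 143.6 and 117.1 FPKM in the controls and at 155.8 and 99.6 FPKM with biotin. The biotin libraries held both the highest and the lowest value, and it was the only tested variant whose groups overlapped. Its mean was 130.4 ± 18.7 FPKM in control libraries and 127.7 ± 39.7 FPKM with biotin (SD, n = 2 each). The log2 change of -0.06 ± 0.27 had a 95% interval of -0.72 to 0.60 (limma adjusted p = 0.895), so changes of either sign within that range were not excluded. The genes whose centred log2(FPKM + 1) lay nearest to that of H2AZ1 over the 4 libraries were SUGCT, EXD3 and MYEOV, at Euclidean distances of 0.0495, 0.0763 and 0.0792.

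H2AZ2 (hg38 chr7:44826889-44848126) stood at 23.7 and 22.2 FPKM in the controls and at 31.2 and 33.5 FPKM with biotin. The groups did not overlap, but the log2 change of 0.48 ± 0.17 (95% interval 0.05 to 0.90) missed the threshold at a limma adjusted p of 0.0952. It passed only when the middle of the deposited interval took the place of the FPKM, an alternative added after seeing the data (0.54, adjusted p = 0.0427). The gene sum joined several transcripts. The long transcript NM_138635 (3755 nt), the one with the seed match shown above, had 9.04 and 8.75 FPKM without the tag and 18.9 and 17.1 FPKM with it. Its log2 change was 0.94 ± 0.14, with an unadjusted p of 0.00348 and an adjusted p of 0.0633 over 12005 transcripts in limma, of which 2.80% were called higher and 1.18% lower. The short transcripts NM_201436 and NM_201517 took turns, the former at 14.7 and 16.4 FPKM in control 1 and biotin 2, the latter at 13.4 and 12.3 FPKM in control 2 and biotin 1, and each at 0 in the other libraries. The remaining short transcripts NM_201516 and NM_012412 were listed at 0 everywhere. The short transcripts that were above 0 are close in length, 1351 and 1315 nt, and each had an SE over 2 on the log2 scale in the fit of single transcripts (0.07 ± 2.15 and -0.06 ± 2.02).

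**Figure D2:**
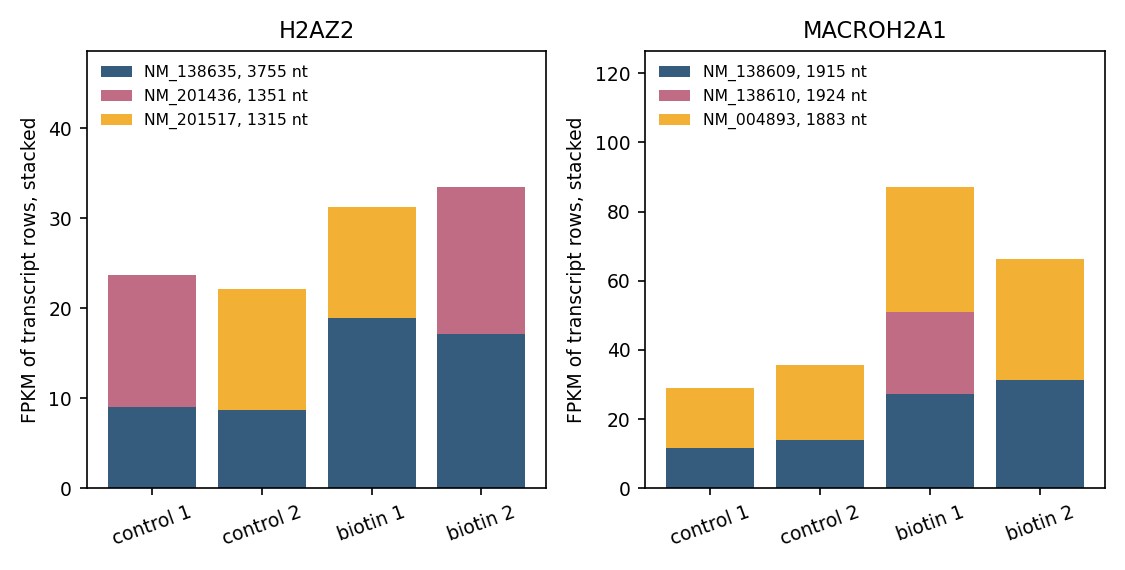
FPKM of the single transcripts of H2AZ2 (left) and MACROH2A1 (right), stacked within each library and drawn from 0; the legend gives each transcript's length. The long H2AZ2 transcript is taller in both biotin bars while the short ones swap between libraries, and 1 MACROH2A1 transcript is above 0 in biotin replicate 1 only.

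The macroH2A genes moved in opposite directions. In MACROH2A1 (hg38 chr5:135334381-135399887), antisense genes share 12% of the 50-base windows of its most abundant transcript, which has 9 exons. The strand setting of the counting is not given in the sources used here. MACROH2A1 stood at 29 and 35.7 FPKM in the controls and at 87.2 and 66.4 FPKM with biotin. Both biotin values were above both controls, but they lay further from each other than the controls did. The mean went from 32.4 ± 4.71 to 76.8 ± 14.7 FPKM (SD, n = 2 each), a ratio of 2.37, with a log2 change of 1.22 ± 0.22 (95% interval 0.67 to 1.76, limma adjusted p = 0.0158). A single transcript, NM_138610, was listed at 23.7 FPKM in biotin replicate 1 and at 0 in the other 3 libraries. That is more than the whole gap between the gene's biotin values. The most abundant transcript, NM_004893, went from 17.4 and 21.8 FPKM to 36.3 and 35.2 FPKM, and NM_138609 from 11.6 and 13.9 FPKM to 27.2 and 31.2 FPKM. Tested one by one, their log2 changes of 0.84 ± 0.17 and 1.14 ± 0.17 did not pass (limma adjusted p = 0.0932 and 0.0643). The gene's call was also lost without control replicate 1 (adjusted p = 0.0823), without control replicate 2 (0.0559) and with no filter on low values (0.0564).

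MACROH2A2 (NM_018649, hg38 chr10:70052601-70112284, 2179 nt) stood at 5.57 and 6.61 FPKM in the controls and at 3.36 and 3.32 FPKM with biotin. Both biotin values were below both controls. The log2 change was -0.70 ± 0.15 (95% interval -1.07 to -0.34, limma adjusted p = 0.0239), from a mean of 6.09 ± 0.737 to 3.34 ± 0.0256 FPKM (SD, n = 2 each). This call was lost without either control replicate (adjusted p = 0.0584 and 0.0968), without biotin replicate 2 (0.0598), with no filter on low values (0.0693), with single transcripts tested (0.105) and with the interval's middle (-0.44, adjusted p = 0.107). All 4 of its values lay below the interval that the authors deposited for them, for example 3.32 FPKM against an interval of 5.47 to 7.27 in biotin replicate 2.

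H2AX, the variant phosphorylated beside DNA breaks, had the strongest fall among the variants. It (NM_002105, hg38 chr11:119093875-119095467, 1593 nt, a single exon) stood at 69.0 and 119.6 FPKM in the controls and at 41.0 and 34.1 FPKM with biotin. The controls differed from each other by more than control replicate 1 differed from biotin replicate 1, and the groups did not overlap. The mean was 94.3 ± 35.7 FPKM in control libraries and 37.6 ± 4.93 FPKM with biotin (SD, n = 2 each), a ratio of 2.51 of control to biotin. The log2 change was -1.26 ± 0.30 (95% interval -1.98 to -0.54, limma adjusted p = 0.0307), and only 1.15% of all tested genes had a lower one. Without control replicate 2 it was -0.87 and missed the threshold (adjusted p = 0.102). The call was also lost with no filter on low values (adjusted p = 0.0999), with short RNA genes kept (0.0594), and with single transcripts tested (0.134).

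H2AX also differed from the other variants in the end of its mRNA. A histone stem-loop was found in its 3′ UTR, starting 50 nt after the stop codon, and in that of no other member. The same search found it in 0.335% of 9256 tested 3′ UTRs and in 28 of the 30 replication-dependent histone genes with a 3′ UTR in GENCODE 29. A poly(A) signal, AATAAA or ATTAAA on the transcript strand, lay in the last 50 bases of 8 of the 9 member transcripts, H2AX included, and not in that of MACROH2A1. This signal was found in 75.9% of tested transcripts and in 24.2% of the replication-dependent histones. H2AX, H1-10 and H2AJ have a single exon, as do 2.36% of tested genes and 98.4% of the replication-dependent histones.

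By the deposited FPKM, H1-10 and H2AJ were lower in both biotin libraries without passing the test. H1-10 (NM_006026, hg38 chr3:129314771-129316277, 1507 nt), which encodes a linker histone that binds DNA between nucleosomes, stood at 28.4 and 24.5 FPKM in the controls and at 22.8 and 13.8 FPKM with biotin. Its log2 change was -0.54 ± 0.26 (95% interval -1.18 to 0.09, limma adjusted p = 0.177), and it passed only without biotin replicate 1 (-0.89, adjusted p = 0.0346). An antisense gene shares 17.2% of its 50-base windows, and the strand setting of the counting is not given in the sources used here. H2AJ (NM_177925, hg38 chr12:14774336-14778002), an H2A variant known to accumulate in senescent cells, stood at 2.62 and 3.43 FPKM in the controls and at 1.89 and 1.75 FPKM with biotin. Its log2 change was -0.51 ± 0.16 (95% interval -0.89 to -0.12, limma adjusted p = 0.0641), and the pseudocount of 1 understates the change of a gene at this level. The deposited length of H2AJ was 3667 nt, against 644 nt for its transcript in GENCODE 29, so its FPKM relative to other genes depends on which length is right.

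By mean control FPKM the order was H2AZ1, H2AX, H3-3B, MACROH2A1, H1-10, H2AZ2, MACROH2A2 and H2AJ. The control values of H2AZ1 and H2AX overlapped, as did those of H3-3B and MACROH2A1, and the other neighbours did not. With biotin the order was H2AZ1, H3-3B, MACROH2A1, H2AX, H2AZ2, H1-10, MACROH2A2 and H2AJ, and H3-3B lay within the range of H2AZ1. Both orders use the FPKM as deposited. The authors' intervals for H2AX (6.84 to 10.1 and 11.1 to 14.5 in the controls) and H1-10 (3.75 to 5.99 and 5.42 to 7.79) lie far below it and would move both genes down the order.

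Most replication-dependent histones, the canonical counterparts, fell. Of 64 genes listed, 62 had values, 9 of them 0 in every library, and 47 were tested. Of these 47, 43 fell, 1 rose and 3 were not called, against 9.34% of all tested genes called lower and 13.2% higher. Among tested genes under 1000 nt other than the listed histones, 26.7% were called lower and 6.94% higher. The part of length in the fall was not tested. How reads that fit several listed genes were placed is not given in the sources used here. Some of the 47 may therefore not be measured separately. The median log2 change of the 47 was -1.70. The summed level of the listed genes went from 20794 and 23751 FPKM in the controls to 8082 and 8582 FPKM with biotin. All 8 tested H4 genes fell with a median of -2.38, led by H4C12 (-2.93 ± 0.24), H4C13 (-2.49 ± 0.27) and H4C11 (-2.48 ± 0.22). All 4 tested H1 genes fell with a median of -1.86, the lowest being H1-5 at -2.45 ± 0.25. Of the H2A genes 12 of 13 fell (median -1.60), of the H2B genes 13 of 14 (-1.48), and of the H3 genes 6 of 8 (-1.43). Those not called were H2AC17 (-0.02), H2BC21 (-0.36) and H3C11 (1.24, adjusted p = 0.0972). The H3 gene H3C12 rose, from 2.25 and 3.90 FPKM to 6.06 and 12 FPKM (1.26 ± 0.33, limma adjusted p = 0.0417). This call was lost without control replicate 1 and without biotin replicate 2, with no filter, with short RNA genes kept, with single transcripts and with the interval's middle, where limma called 0 replication-dependent histones higher (0 to 2 at an unadjusted p under 0.05). H3-3B had a higher log2 change than all 47, and H2AZ2 and MACROH2A1 than 45 of them. H2AX had a higher one than 37 of the 47 and was the variant nearest to their median.

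**Figure D3:**
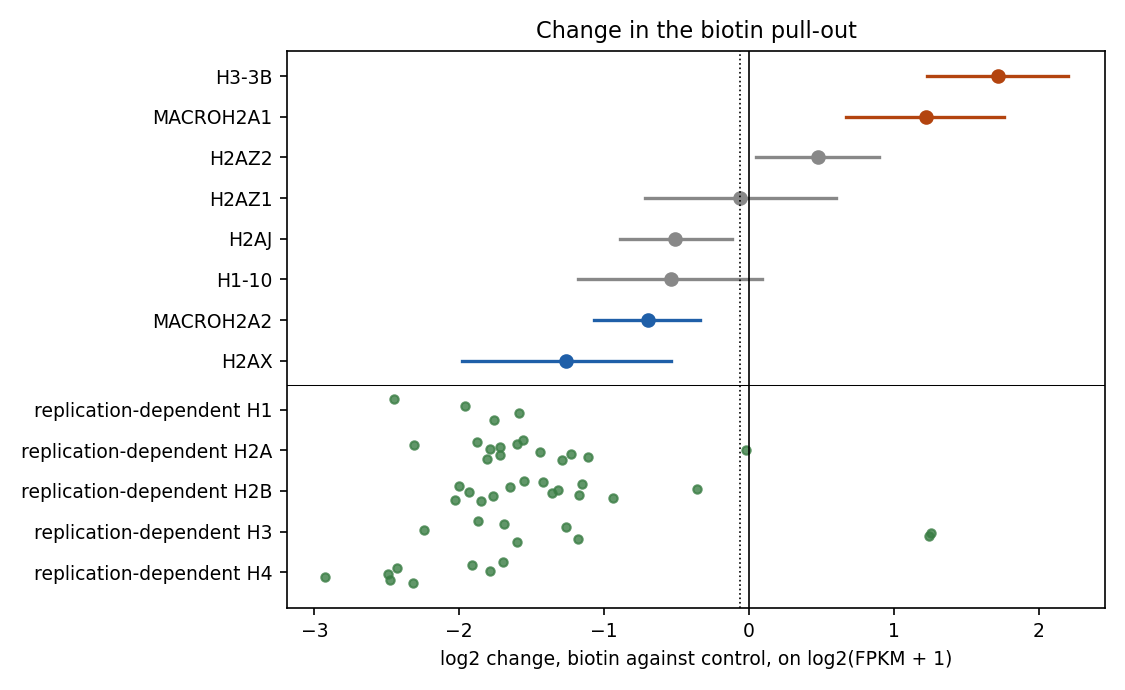
Log2 change of biotin against control on log2(FPKM + 1). Above the line are the 8 variants with 95% intervals (orange higher, blue lower, grey not called); below it each green point is a replication-dependent gene, by class, and the dotted line is the median of all tested genes, -0.06. H2AX is the variant that reaches into the range of most replication-dependent genes.

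The variants made up a larger part of the recovered histone RNA of their class with biotin than without. The canonical genes in that share fell, from 9187 and 10745 to 4127 and 4122 FPKM summed over H2A, while the sum of the 6 H2A variants overlapped between groups (273.6 and 304.6 against 320.4 and 238.6 FPKM) and H1-10 was lower with biotin. H3-3B was 0.776% and 0.767% of the summed H3 level in the controls and 6.30% and 4.96% with biotin. The 6 H2A variants were 2.89% and 2.76% of the H2A level in the controls and 7.20% and 5.47% with biotin, and without H2AX 2.18% and 1.69% against 6.34% and 4.73%. H1-10, although its own level was not called, was 1.59% and 1.14% of the H1 level in the controls and 3.94% and 2.95% with biotin. The groups did not overlap in any class, and the exact two-sided permutation p was 0.33, the smallest that 2 against 2 allows.

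**Figure D4:**
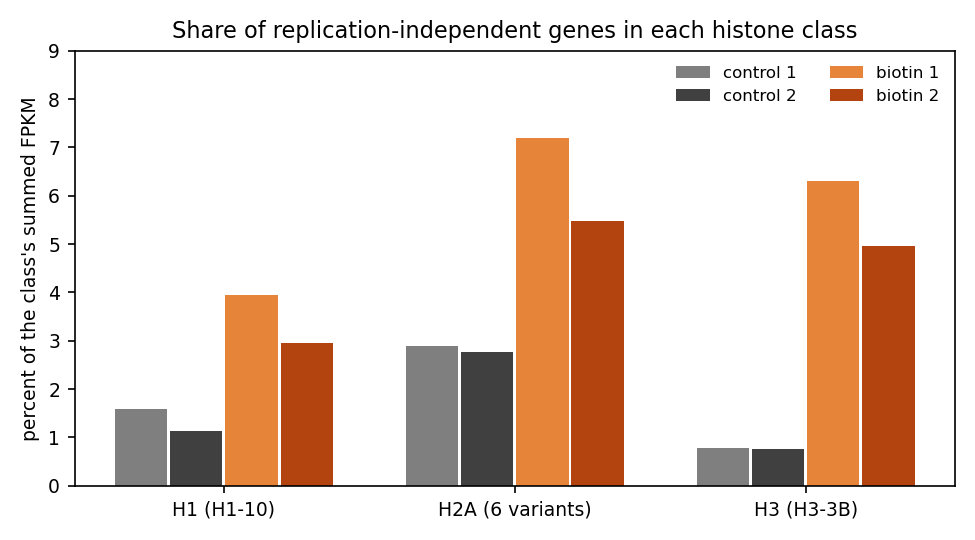
Percent of the summed FPKM of each histone class (members plus replication-dependent genes) that came from the members, in each library; bars start at 0. In H1, H2A and H3 both biotin bars stand above both control bars.

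Length and base composition of the transcripts moved with the change over all genes. The median log2 change was -0.43 for tested genes under 1000 nt and -0.02 for those of 4000 nt or more, and it went from -0.20 below 45% GC to 0.26 at 65% GC or more. H2AX (66.4% GC) and H1-10 (68.6% GC) lay in the class with the highest median and had changes of -1.26 and -0.54. H3-3B (43.1% GC) lay in the class with the lowest and had a change of 1.72. Single-exon genes other than histones had a median of -0.07 (170 genes). The part of length and GC in the changes of single variants was not tested.

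The authors' tables also give an interval for each FPKM, and many values of the variants lay outside their own. Of 41 values above 0 over the members' transcripts, 21 did, beside 31.3% to 34.3% of the values above 1 FPKM in each library over all transcripts. All 4 values of H2AX were far above their intervals: 69.0 against 6.84 to 10.1, 119.6 against 11.1 to 14.5, 41.0 against 3.28 to 5.17, and 34.1 against 2.64 to 4.07 FPKM. All 4 values of H1-10 were also above, for example 28.4 against 3.75 to 5.99 FPKM in control replicate 1. For H3-3B the values stayed near the intervals, with 121.7 against 144.5 to 154.0 FPKM in biotin replicate 1 and 123.9 against 113.8 to 120.5 FPKM in biotin replicate 2. The intervals would thus put H2AX and H1-10 several times lower than the FPKM does. In H2AX the intervals of both biotin libraries also lay below those of both controls. Those of H1-10 overlapped between groups, with 5.07 to 7.26 FPKM in biotin replicate 1 against 3.75 to 5.99 FPKM in control replicate 1. With the interval's middle the log2 change of H1-10 was -0.18 (limma adjusted p = 0.592). How the intervals were made is not given in the sources used here.

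**Figure D5:**
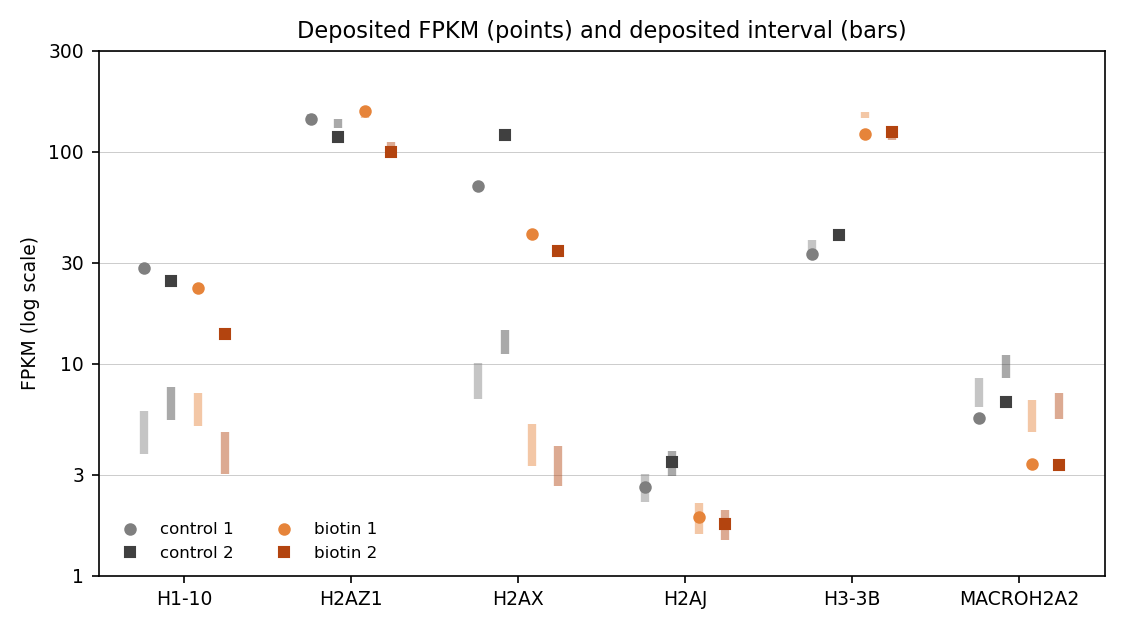
Deposited FPKM (points) and deposited interval (bars) of 6 variants with 1 transcript above 0, by library, on a log axis. The points of H1-10 and H2AX lie above all of their bars and those of MACROH2A2 below; in H2AX both biotin bars lie below both control bars.

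The machinery that places the variants showed changes of single genes in both directions, to be read against the 13.2% of all tested genes called higher and 9.34% called lower. Of 8 tested H3.3 chaperones and their partners, 1 rose and 2 fell (median -0.15). ASF1B, which hands H3-H4 dimers to other chaperones, was at 30.5 and 29.2 FPKM in controls and 153.5 and 111.6 FPKM with biotin (2.1 ± 0.22, limma adjusted p = 0.00274) and passed with any library left out. Its paralog ASF1A fell (-0.83 ± 0.19, adjusted p = 0.0289), as did DEK (-0.81 ± 0.20, 0.0348), but ASF1A missed the threshold without control replicate 2 (adjusted p = 0.0955) and DEK without control replicate 1 or biotin replicate 1 (at most 0.119). Of 21 tested genes of the H2A.Z deposition and removal complexes, 5 rose and 4 fell (median -0.26), and with a library left out 1 to 4 rose and 0 to 3 fell. KAT5, the acetyltransferase of the TIP60 complex, was at 3.20 and 2.12 FPKM in control libraries and 12.8 and 10.1 FPKM with biotin (1.77 ± 0.21, adjusted p = 0.0037) and passed with any library left out. TRRAP (1.08 ± 0.21) and MBTD1 (1.03 ± 0.17) of the same complex rose, and the H2A.Z chaperone VPS72 fell (-0.83 ± 0.20). Each of these 3 calls was lost in 2 of the 4 fits that left out a library: TRRAP and MBTD1 without either control, at adjusted p-values of at most 0.0926 and 0.0575, and VPS72 without control replicate 1 or biotin replicate 2 (at most 0.11). Smaller rises were seen in SRCAP (0.79) and RUVBL2 (0.67), the former the ATPase that exchanges H2A for H2A.Z, and smaller falls in ACTR6 (-0.69), YEATS4 (-0.78) and ACTL6A (-0.78). Each of these 5 calls was lost in 3 of the 4 fits that left out a library, those without control replicate 1 and control replicate 2 among them (adjusted p up to 0.163).

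Of 14 tested genes of H2AX signalling, 3 rose and 2 fell (median -0.08), beside 13.2% and 9.34% of all tested genes. With a library left out 0 to 2 rose and 0 to 2 fell. The kinase ATR, which phosphorylates H2A.X at stalled forks, rose by 1.11 ± 0.17 (limma adjusted p = 0.0097), and the ubiquitin ligase RNF8 by 0.89 ± 0.16 (0.0145). Both calls were lost without control replicate 1 (adjusted p = 0.061 and 0.0689). NBN, a subunit of the break sensor MRN, fell by 0.76 on the log2 scale (adjusted p = 0.0156), a call lost without either control replicate (at most 0.0706). MRE11, another MRN subunit, rose by 0.53 (adjusted p = 0.0445), a call lost with any library left out (up to 0.152). WRAP53, the other gene counted as fallen, was at 5.89 and 6.32 FPKM in the controls and was listed at 0 in both biotin libraries. This gene overlaps another on the opposite strand. It passed the filter on low values only through the controls, where it was high, and was not tested when either control was left out. Of 11 tested FACT, CAF-1 and other histone chaperones, 0 rose and 0 fell in limma (median -0.19), with 1 lower at an unadjusted p under 0.05, the centromeric chaperone HJURP (-0.58, adjusted p = 0.0548). The abundant members SSRP1 (-0.33, adjusted p = 0.228) and NPM1 (-0.35, 0.156) were not called. Of 12 tested genes for the 3′ end of histone mRNAs, CPSF2 rose (0.69 ± 0.17, adjusted p = 0.0362) and LSM10 of the U7 particle fell (-0.75 ± 0.18, 0.0311), with a median of -0.11. The CPSF2 call was lost with any library left out (adjusted p up to 0.141), and that of LSM10 without control replicate 1 or biotin replicate 2 (up to 0.103). Of 10 other histone variants in the tables only 3 were tested, H3-5 among them.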

How the data were processed

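The authors deposited 1 Cufflinks table per library, with 53209 transcripts and values in FPKM, per the file headers. The coverage signal deposited beside them served only to estimate depth, and the deposited interval bounds (FPKM, per the file headers) only as described. Libraries were made with the TruSeq Stranded Total RNA kit and read as single ends of 50 bases, per the labels' protocols. The submitters' processing notes name hg38, Cufflinks 2.1.1, Cuffdiff, TopHat2 2.0.9, cutadapt and FastQC 0.10.1. Settings, strand and annotation: not given in the sources used here.

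Of 46699 accessions, 98.7% had a symbol in the reference tables, and gene FPKM was their sum. Genes with a failed or excess-data transcript (22) and short structured RNAs were left out. Genes at 1 FPKM or more in at least 2 libraries entered limma 3.58.1 (R 4.3.3) on log2(FPKM + 1), two-sided, with a variance trend and Benjamini-Hochberg adjustment. The fit had 2 residual and 4.21 prior degrees of freedom, was tested on simulated data, and gives changes relative to no further scaling. Alternatives were other pseudocounts, filters, scalings, a replicate block, single transcripts and each library left out. Sequence features came from GENCODE 29 transcripts matched by RefSeq accession. The histone stem-loop was searched by its consensus with degenerate positions, on the transcript strand.

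The members, lists and tests were chosen with earlier results of these data known. Named were all members, up to 4 called genes of each list with the largest change (else the 2 with the highest mean FPKM), and the 3 genes nearest to H2AZ1. Replication-dependent genes that did not fall, and SRCAP, RUVBL2, ACTR6, YEATS4, ACTL6A, MRE11 and HJURP, were named after their values were seen. Protein sequences were not used here.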

Additional observations from a re-analysis of the deposited data

How the results depend on the processing

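H3-3B kept its call in every alternative run, and the other variants called did so in part of them. Among the 8 variants, 1 was higher with no filter on low values and 1 with single transcripts. The number lower was 1 with a mean FPKM of at least 5, a filter that MACROH2A2 and H2AJ did not pass, so they were not tested there. It was also 1 with the middle of the deposited interval and 1 with short RNA genes kept. In limma it was 0 with no filter (3 at an unadjusted p under 0.05) and 0 with single transcripts (2 unadjusted). With each library left out in turn, 1 to 2 variants were higher and 0 to 3 lower. The change of H2AZ1 changed sign, to 0.01 with median-of-ratios scaling and 0.05 with quantile normalization, and ranged from -0.38 to 0.26 with a library left out. Over all genes, the 1307 higher and 928 lower became 653 and 231 with no filter, 336 and 142 with single transcripts, and 537 to 1073 and 140 to 715 with a library left out. Replication-dependent histones called higher were 0 with the interval's middle (2 at an unadjusted p under 0.05), no filter (1), short RNA genes kept (1) and single transcripts (1), 2 with quantile normalization, and 0 to 2 with a library left out. Those called lower were 26 with no filter, 25 with single transcripts, and 33 to 41 with a library left out. The cause was not tested. A fit that leaves 1 library in a group assumes that it varies like the others. No scaling moved the median of all genes by more than 0.1. H2AJ and MACROH2A2 rest on the fewest reads.

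Libraries of the 2 groups share only a replicate number. Deviations of same-numbered libraries correlated at 0.0184, and with only 2 pairs this does not show pairing. With the replicate number as a block, 2 variants were higher and 1 lower (H2AX missed, adjusted p = 0.0616), 1084 genes were higher and 541 lower, and 2 replication-dependent histones were higher and 39 lower.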
